A study of Mus musculus with 16 samples.

Results

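The 10 genes described here, Slc2a1, Ldha, Pgk1, Pdk1, Bnip3, Egln3, Car9, Ankrd37, Adm and Ndrg1, are hypoxia-inducible genes that were chosen by name, out of 24934 gene symbols in the series. Their mRNA was read by RNA sequencing from brown adipose tissue (BAT), epididymal white adipose tissue (eWAT), inguinal white adipose tissue (iWAT) and liver of 24-week-old C57BL/6 mice. One treatment was vehicle and the other sunitinib (Sutent), a small molecule that blocks several receptor tyrosine kinases, the VEGF receptors of blood vessels among them. Every tissue had 2 vehicle and 2 sunitinib libraries, 16 in all, and the series text gives 8 mice with 4 per treatment. The labels used here name no genetic change in any group and do not give the dose, the route, the duration or the diet. They do not tie libraries to mice, so p-values here speak of the spread between libraries only, which may be partly technical. The comparison asked whether blocking vascular receptors left a transcriptional response to low oxygen. All 10 symbols were present in each of the 4 tables, and 9 in BAT, 10 in eWAT, 10 in iWAT and 8 in liver passed a filter of a mean regularized log2 value of at least 3, so 37 values were tested.

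Cells sense oxygen through prolyl hydroxylases of the EGLN family, which use oxygen to mark the alpha subunits of hypoxia-inducible factors (HIF) for removal by the von Hippel-Lindau ubiquitin ligase. When oxygen is short the alpha subunits persist, pair with ARNT and bind a short DNA core, RCGTG, near their target genes. The targets shift glucose use towards glycolysis and lactate, trim mitochondria, buffer acid and widen or build vessels, and in expanding white fat they are often discussed because adipocytes can outgrow their capillaries.

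No member passed the test in any tissue, with adjusted p-values between 0.0694 and 0.995 in limma. The largest difference was that of Egln3 in BAT, 0.51 on the log2 scale or 1.42-fold, and the lowest that of Pdk1 in BAT, −0.39 or 0.761-fold. Some did in fits with other settings or fewer libraries, which are given by tissue. On the higher side lay 8 of 9 members tested in BAT, 6 of 10 in eWAT and 7 of 10 in iWAT. The median over all genes was −0.005, 0.009 and 0.01 in the same order. The highest were Egln3, Bnip3, Slc2a1 and Ndrg1 in BAT, Ndrg1, Egln3 and Bnip3 in eWAT and Pdk1, Slc2a1 and Ankrd37 in iWAT. Slc2a1, Ldha, Pgk1, Pdk1, Car9 and Adm differed in sign between tissues. Bnip3, Egln3 and Ndrg1 were the 3 members with a positive difference in all 4 tables, although all 3 were within 0.04 of 0 in liver. The 95% intervals of the 37 differences reached at most 0.998 upwards, for Ankrd37 in iWAT, and −0.85 downwards, for Adm in iWAT. All values are the authors' regularized log2 expression, which pulls genes with few reads towards their mean, and a difference is the sunitinib mean less the vehicle mean, given ± SE from limma (n = 2 and 2).

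Promoter sequences of 9 of the 10 members were present in the RefSeq table of build GRCm38.p6, and Ndrg1 was not matched. The 250 bases before the annotated start are shown for 6 members: Egln3, Bnip3 and Slc2a1, which lay higher in BAT, and Pdk1, Ldha and Pgk1, which lay lower in at least 1 tissue. These sides are not exclusive, as Slc2a1 lay lower in liver and Ldha higher in BAT and liver. Capitals mark every match to the HIF core, searched as ACGTG and GCGTG on both strands (CACGT and CACGC on the printed strand), and overlapping matches, as in the palindrome CACGTG that other basic helix-loop-helix factors also bind, are counted as 1 stretch. The windows are chr12:54203875-54204124 (minus strand) for Egln3, chr7:138909507-138909756 (minus strand) for Bnip3, chr4:119108495-119108744 (plus) for Slc2a1, chr2:71872974-71873223 (plus) for Pdk1, chr7:46845554-46845803 (plus) for Ldha and chrX:106186850-106187099 (plus) for Pgk1, each read 5′ to 3′ on the gene's strand.
Egln3: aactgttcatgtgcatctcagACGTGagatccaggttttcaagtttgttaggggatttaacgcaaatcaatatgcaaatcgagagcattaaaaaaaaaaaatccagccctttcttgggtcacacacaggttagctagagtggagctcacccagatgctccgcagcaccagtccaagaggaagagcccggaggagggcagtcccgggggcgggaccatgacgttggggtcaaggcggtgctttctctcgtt
Bnip3: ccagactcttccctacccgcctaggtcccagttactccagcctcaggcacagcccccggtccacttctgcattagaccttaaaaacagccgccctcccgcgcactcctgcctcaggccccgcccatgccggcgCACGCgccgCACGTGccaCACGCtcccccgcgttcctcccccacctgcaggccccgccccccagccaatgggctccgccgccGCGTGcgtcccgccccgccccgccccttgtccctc
Slc2a1: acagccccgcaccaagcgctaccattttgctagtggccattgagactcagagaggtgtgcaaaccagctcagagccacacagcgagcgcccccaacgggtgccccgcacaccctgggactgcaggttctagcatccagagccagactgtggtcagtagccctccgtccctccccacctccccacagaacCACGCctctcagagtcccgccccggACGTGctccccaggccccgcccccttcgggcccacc
Pdk1: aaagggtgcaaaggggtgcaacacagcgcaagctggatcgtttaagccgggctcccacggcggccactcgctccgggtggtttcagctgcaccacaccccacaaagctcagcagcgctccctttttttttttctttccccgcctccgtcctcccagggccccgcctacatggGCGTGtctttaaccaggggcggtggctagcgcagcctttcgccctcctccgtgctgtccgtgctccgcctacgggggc
Ldha: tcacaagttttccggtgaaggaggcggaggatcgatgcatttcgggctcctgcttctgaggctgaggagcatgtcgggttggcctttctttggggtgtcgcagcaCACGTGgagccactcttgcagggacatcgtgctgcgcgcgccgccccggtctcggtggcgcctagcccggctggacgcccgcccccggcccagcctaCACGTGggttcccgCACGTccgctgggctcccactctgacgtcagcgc
Pgk1: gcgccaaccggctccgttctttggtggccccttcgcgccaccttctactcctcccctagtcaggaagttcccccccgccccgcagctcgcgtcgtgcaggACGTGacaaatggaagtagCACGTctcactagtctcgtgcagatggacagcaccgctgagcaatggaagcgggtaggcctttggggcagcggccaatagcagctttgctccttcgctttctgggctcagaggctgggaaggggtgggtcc

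All 9 members held the core in at least 1 annotated window. By window, 10 of their 11 held it, where 38.6% of all 32851 windows of the same length did. The members were chosen by name as hypoxia-inducible genes, so this excess is no test of them, and base composition was not matched. Bnip3 had 4 stretches, Ldha and Ankrd37 3, Slc2a1, Pgk1 and Adm 2, and Egln3, Car9 and Pdk1 1, and 13.4% of all windows had 2 or more. The core in the ACGTG form was present in 7 of the 9, with Pdk1 and Adm holding only GCGTG. Of all windows 16.6% held that form, a share by single window that is not like for like with the count by gene. A second annotated start of Ldha had 1 stretch and a second start of Pdk1 had 0. In iWAT the core stood before members on both sides of 0: Ldha with 3 stretches and Pgk1 with 2 lay lower, and Slc2a1 with 2 lay higher. None of these differences passed in the fit of all iWAT libraries alone, and a link between core and direction was not tested. A match is a description of these letters and not a bound site, and enhancers outside the window were not searched. The expression tables were made on build mm9, so the coordinates belong to the sequences only.

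The labelled tissues carried their defining markers. Ucp1, the uncoupling protein of brown fat, was at 16.5 to 16.9 in BAT, Alb, albumin, at 20.1 to 20.3 in liver, and Adipoq, adiponectin, at 15.6 to 16.2 in both white depots. Skeletal muscle transcripts varied widely in iWAT, where the fast myosin Myh4 was at 16.3 and 14.4 with vehicle and at 14.6 and 10.2 with sunitinib. The duct protein Crisp1 stood at 12.7 in sunitinib replicate 1 of eWAT and at 5.98 to 6.21 in the other libraries of that depot. In liver the epithelial list includes keratins and the cadherin that hepatocytes express.

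**Figure D1:**
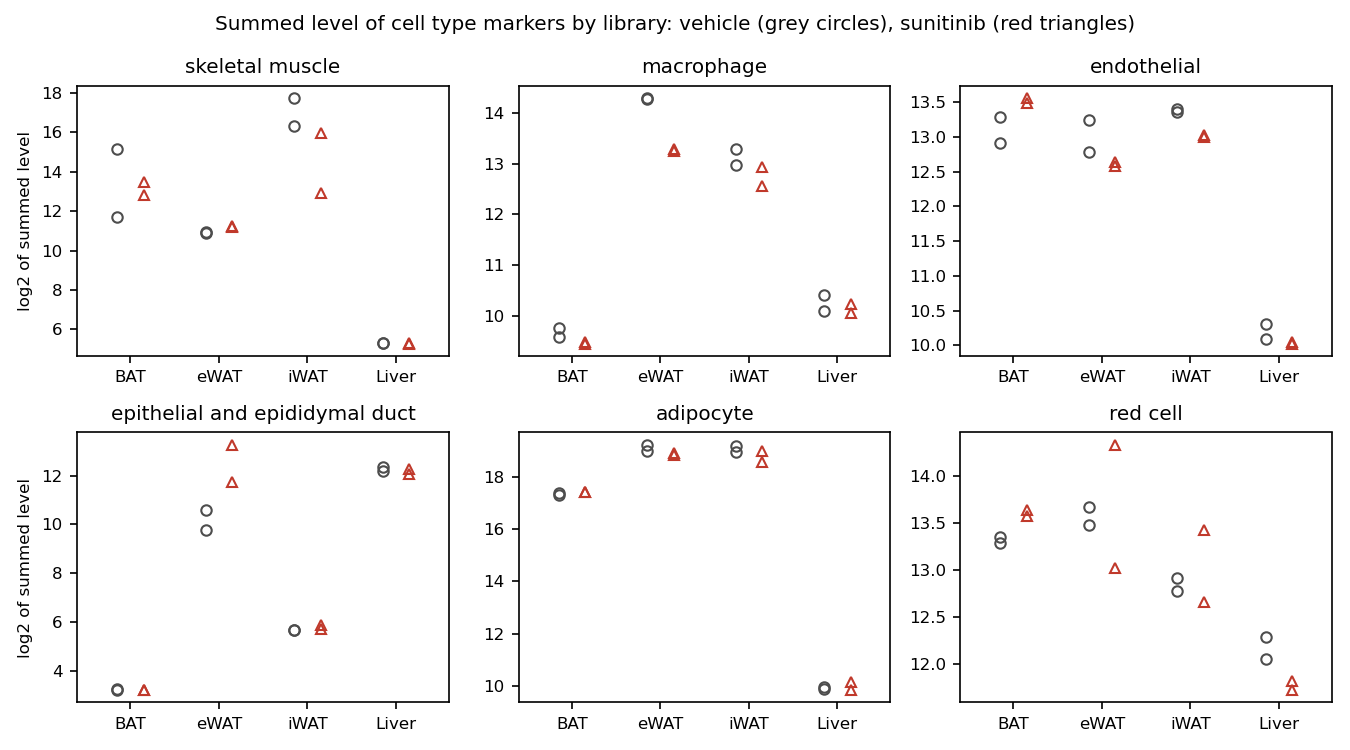
Log2 of the summed level (y axis) of 6 lists of cell type markers in every library by tissue (x axis), with vehicle as grey circles and sunitinib as red triangles. Muscle markers differ widely between libraries of BAT and iWAT, macrophage markers are lower with sunitinib in eWAT (13.3 against 14.3), and endothelial markers are higher with sunitinib in BAT and lower in eWAT and iWAT.

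Egln3 encodes a prolyl hydroxylase that is itself a HIF target and so feeds back on its regulator. In BAT it was at 9.10 and 8.96 under vehicle and at 9.50 and 9.58 under sunitinib. Both sunitinib libraries were above both vehicle libraries, a difference of 0.51 ± 0.08 with a 95% interval of 0.31 to 0.70 (adjusted p = 0.228). It ranked 22 by p among 13044 genes tested in BAT, where 0.228 was the smallest adjusted p of any gene. In eWAT it was at 6.16 and 6.10 with vehicle and at 6.55 and 6.47 with sunitinib, again without overlap, and the difference of 0.38 ± 0.07 had an adjusted p of 0.0694, the smallest of all members. A robust variance estimate gave an adjusted p of 0.0457 there, with 3.76% of all genes past the test, and the 8 alternatives other than leaving out libraries ranged from 0.0457 to 0.160. In iWAT the values were 5.76 and 5.93 against 6.19 and 5.95, so that the lower sunitinib library stood just above the higher vehicle library, and the difference was 0.22 ± 0.17 (adjusted p = 0.575). In liver 7.80 and 7.89 with vehicle and 7.79 and 7.97 with sunitinib overlapped. Egln3 was the one member whose sunitinib libraries lay above both vehicle libraries in all 3 fat depots. Singly, 26.2% of all genes showed this order in BAT, 27.0% in eWAT and 24.0% in iWAT. The share over all 3 together was not computed.

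Bnip3 encodes an outer mitochondrial membrane protein that recruits the autophagy machinery and so helps remove mitochondria. It was at 12.28 and 12.26 in vehicle BAT and at 12.68 and 12.57 in sunitinib BAT. The groups did not overlap, and the difference was 0.36 ± 0.07 with an interval of 0.18 to 0.54 (adjusted p = 0.228). In eWAT it was at 12.48 and 12.16 against 12.64 and 12.62, also without overlap, at 0.31 ± 0.12 (adjusted p = 0.255). In iWAT the sunitinib libraries stood on either side of the vehicle pair, at 12.98 and 12.33 around 12.53 and 12.51. The sign there rested on sunitinib replicate 1, without which the difference was −0.18, and without sunitinib replicate 2 it was 0.46. Liver values lay between 11.51 and 11.53 in all 4 libraries.

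Slc2a1 encodes GLUT1, a glucose transporter of endothelium and many dividing cells. In BAT it was at 7.04 and 6.95 with vehicle and at 7.28 and 7.27 with sunitinib, so the sunitinib pair lay above, by 0.28 ± 0.07 (adjusted p = 0.228). White fat gave values of like sign with more spread, 7.86 and 8.05 against 8.02 and 8.30 in eWAT, which overlapped, and 7.78 and 7.89 against 8.01 and 8.32 in iWAT, which did not. The differences were 0.21 ± 0.12 (adjusted p = 0.405) and 0.34 ± 0.16 (adjusted p = 0.452). Liver had the opposite order, with 7.06 and 7.07 under vehicle and 6.78 and 6.97 under sunitinib, or −0.19 ± 0.08 (adjusted p = 0.557). The effect in BAT minus that in liver was 0.47 ± 0.11, and this difference of effects did not pass (adjusted p = 0.154).

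Ndrg1 encodes a stress-responsive protein of the N-myc downstream regulated family that is induced by hypoxia in many cell types. It was at 8.49 and 8.36 in vehicle BAT and at 8.66 and 8.65 in sunitinib BAT, without overlap, a difference of 0.23 ± 0.07 (adjusted p = 0.253). Its largest difference was in eWAT, where 9.79 and 10.08 with vehicle stood below 10.14 and 10.68 with sunitinib, at 0.47 ± 0.20 (adjusted p = 0.286). Sunitinib replicate 2 was the highest of these 4 libraries, and with replicate 1 left out the difference was 0.74 (adjusted p = 0.0413), while with replicate 2 left out it was 0.20. Leaving out any 1 of the 4 libraries gave adjusted p-values from 0.0413 to 0.684. In iWAT, at 10.58 and 10.50 against 10.76 and 10.49, and in liver, at 6.05 and 6.15 against 6.16 and 6.06, the groups overlapped.

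Pdk1 encodes a kinase that inhibits pyruvate dehydrogenase. Its groups did not overlap in any of the 4 tissues, but lay in opposite orders. The share of all genes without overlap in all 4 was not computed. In BAT vehicle values of 10.52 and 10.40 were above sunitinib values of 9.91 and 10.22, at −0.39 ± 0.12 (adjusted p = 0.245), and in liver 10.44 and 10.63 were above 10.10 and 10.35, at −0.31 ± 0.10 (adjusted p = 0.403). In eWAT 9.09 and 9.29 with vehicle were below 9.33 and 9.55 with sunitinib, at 0.25 ± 0.11 (adjusted p = 0.289), and in iWAT 9.22 and 9.21 were below 9.40 and 9.74, at 0.35 ± 0.15 (adjusted p = 0.419). The difference of effects was −0.65 ± 0.18 for BAT minus eWAT (adjusted p = 0.0879) and −0.75 ± 0.21 for BAT minus iWAT (adjusted p = 0.233). It was 0.56 ± 0.17 for eWAT minus liver (adjusted p = 0.107) and 0.66 ± 0.20 for iWAT minus liver (adjusted p = 0.254). None of these passed over the genes shared by the tables compared.

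Ldha encodes the lactate dehydrogenase subunit that turns pyruvate into lactate, and Pgk1 encodes phosphoglycerate kinase, which makes ATP in glycolysis. Ldha was at 14.36 and 14.22 in vehicle iWAT and at 14.00 and 13.83 in sunitinib iWAT, a difference of −0.37 ± 0.16 (adjusted p = 0.422). Pgk1 followed the same order there, with 10.51 and 10.35 above 10.15 and 10.09, at −0.31 ± 0.10 (adjusted p = 0.378). Neither gene overlapped between the groups of iWAT. The vehicle libraries of iWAT also held more transcript of skeletal muscle, a tissue rich in both enzymes: the summed level of 8 muscle markers was 17.7 and 16.3 on the log2 scale with vehicle and 15.95 and 12.9 with sunitinib. The part of muscle in these differences was not tested. In liver Ldha lay higher with sunitinib, at 13.84 and 13.90 against 13.67 and 13.66, or 0.20 ± 0.07 (adjusted p = 0.448), and muscle markers there had a summed level of 5.28 to 5.33 in all 4 libraries. In BAT Ldha was at 14.28 and 14.41 with vehicle and 14.41 and 14.52 with sunitinib, at 0.12 ± 0.09, and in eWAT at 14.24 and 14.07 against 14.01 and 14.04, at −0.13 ± 0.10. Pgk1 overlapped in BAT, eWAT and liver, with differences of 0.02 ± 0.08, −0.05 ± 0.07 and −0.06 ± 0.07.

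Ankrd37 encodes a small ankyrin-repeat protein known mainly as a direct HIF target. It was at 5.50 and 5.51 in vehicle BAT and at 5.75 and 5.61 in sunitinib BAT, at 0.17 ± 0.07 (adjusted p = 0.323). In iWAT sunitinib replicate 2 stood alone at 4.51 against 3.79 in replicate 1 and 4.01 and 3.80 in the vehicle libraries. The iWAT difference was 0.24 ± 0.28, and it came to 0.60 when replicate 1 of sunitinib was left out and to −0.12 when replicate 2 was. Values in eWAT were between 3.72 and 3.88, and in liver between 2.87 and 2.92, under the filter.

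Adm encodes adrenomedullin, a peptide that widens vessels and stabilizes endothelium. Its groups overlapped in eWAT (8.10 and 8.33 against 8.08 and 8.26) and in iWAT (7.64 and 7.90 against 7.95 and 7.32). In BAT it was at 6.07 and 6.10 with vehicle and 6.19 and 6.16 with sunitinib, and in liver at 4.15 and 4.14 against 4.03 and 4.09. These 2 pairs did not overlap but differed by only 0.09 ± 0.06 and −0.09 ± 0.04. Car9, which encodes the membrane carbonic anhydrase that extrudes acid from hypoxic cells, was at 4.17 to 4.35 in eWAT and 3.34 to 3.53 in iWAT. Its differences were −0.03 ± 0.07 and 0.06 ± 0.11. In BAT it lay between 1.84 and 1.87 and in liver between −1.03 and −1.01, below the filter, where the transformation leaves little room for any difference to show.

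**Figure D2:**
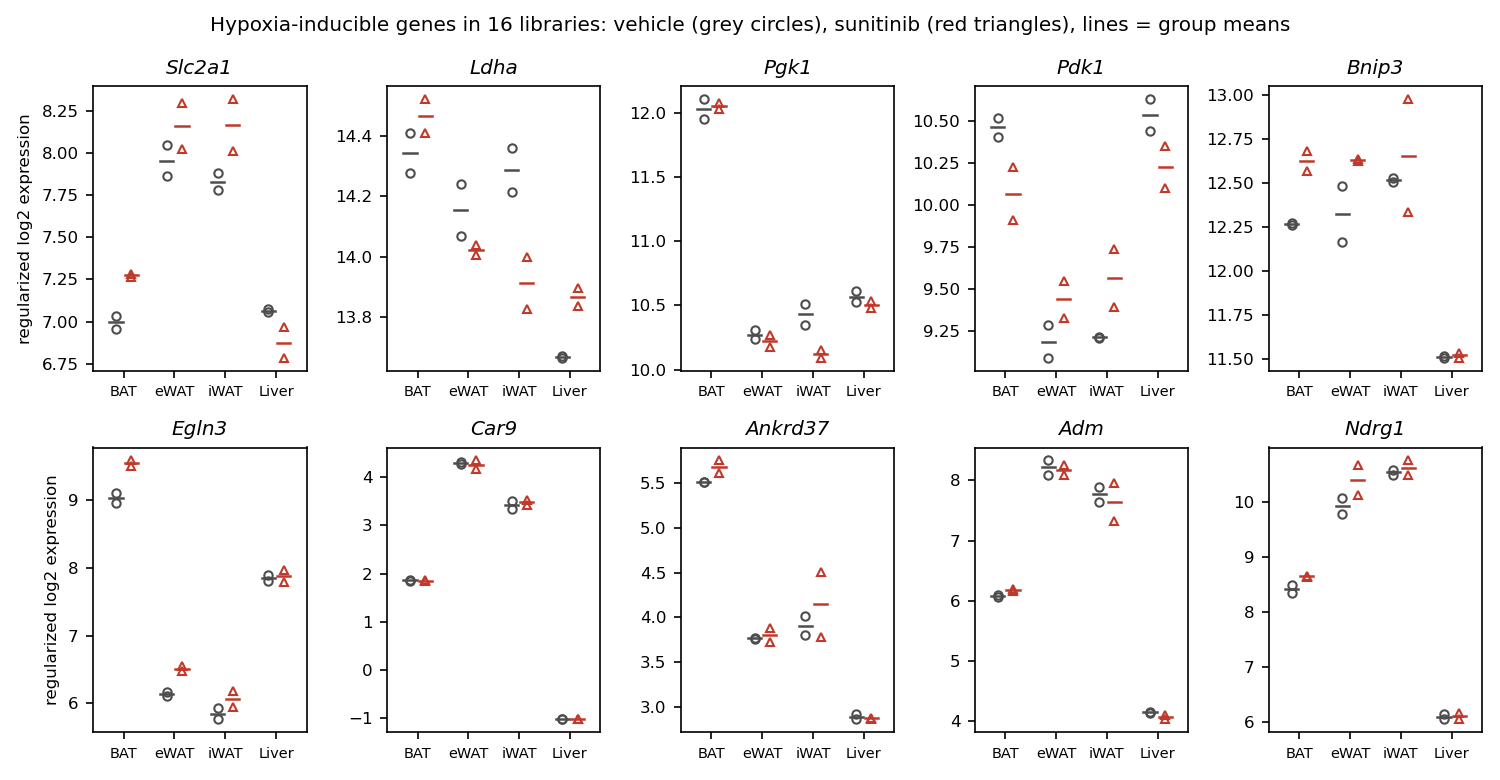
Regularized log2 expression (y axis, scale differs between panels) of the 10 genes in every library, by tissue (x axis), with vehicle as grey circles, sunitinib as red triangles and group means as short lines. Egln3 shows sunitinib above vehicle in the 3 fat depots, and Pdk1 shows opposite orders in BAT and liver on one side and eWAT and iWAT on the other.

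Because each table was normalized on its own, levels of a gene across tissues are a rough description only. In the vehicle libraries Egln3 was highest in BAT (mean 9.03), then liver (7.84), eWAT (6.13) and iWAT (5.84), with no overlap between neighbours. Pgk1 (12.03) and Ankrd37 (5.51) were also highest in BAT, whereas Pdk1 was highest in liver (10.53) and BAT (10.46), whose libraries overlapped. Adm, Car9 and Slc2a1 were highest in eWAT, with 8.21, 4.29 and 7.96, and Slc2a1 there overlapped with iWAT (7.83). Ndrg1 and Bnip3 were highest in iWAT, with 10.54 and 12.52. Ldha overlapped between neighbours across the 3 fat depots, from 14.34 in BAT to 14.16 in eWAT, with liver lower at 13.67. The tissues with the highest levels were thus not the same for all members.

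Read by tissue, 0 of 9 members tested in BAT passed in limma, where 0% of all 13044 genes did, and 5 had an unadjusted p under 0.05, against 16.1% of all genes. In BAT 7 members, all tested except Pgk1 and Pdk1, had both sunitinib libraries above both vehicle libraries, an order that 26.2% of all genes showed, and 1, Pdk1, had both below, against 24.0%. The members' median difference was 0.17, beside −0.005 over all genes. The BAT counts depended on the vehicle libraries. With 1 library left in a group, here and in the other tissues, the spread came from the pair left in the other group and limma's prior, and the lone library was assumed to vary like that pair. In BAT the sunitinib pair was the closer one (SD of the difference over genes 0.119, against 0.300 for the vehicle pair). Without vehicle replicate 1, 4 members passed on the higher side, Egln3 at 0.58, Bnip3 at 0.37, Slc2a1 at 0.32 and Ndrg1 at 0.30, where 9.90% of all genes passed in either direction. Without vehicle replicate 2, Egln3 passed at 0.44 and Pdk1 at −0.45, where 5.03% did. The 2 vehicle libraries of BAT also differed in muscle markers, with a summed level of 11.7 in replicate 1 and 15.2 in replicate 2, around 13.5 and 12.8 in the sunitinib libraries.

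In eWAT 0 of 10 members passed in limma, against 2.34% of 15526 genes, and 1 had an unadjusted p under 0.05, against 20.1%. The median of the members was 0.12, beside 0.009 over all genes, and 4 members lay higher without overlap, against 27.0% of all genes, and 1 lower, against 26.8%. Without sunitinib replicate 1, Ndrg1 passed, where 6.32% of genes did. In iWAT 0 of 10 passed, against 0% of 14916 genes, and 1 had an unadjusted p under 0.05, against 12.7%, with a median of 0.11 beside 0.01. The groups did not overlap for 3 members on the higher side, against 24.0% of all genes, and 2 on the lower side, against 26.4%. The 2 sunitinib libraries of iWAT differed from each other more than any other pair (SD of the difference over genes 0.590, against 0.119 to 0.300 in the other 7 pairs). Without sunitinib replicate 1 of iWAT, Slc2a1, Pdk1 and Ankrd37 passed on the higher side and Ldha on the lower side, where 27.5% of all genes passed. In 1 fit over all 4 tissues, Ldha and Pgk1 passed on the lower side in iWAT (adjusted p = 0.0288 and 0.0163), where 21.8% of genes did. That fit took 1 spread per gene from all 16 libraries, so iWAT was judged partly by the spread of the other tissues.

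In liver 0 of 8 passed in limma, against 0.194% of 12394 genes, and 3 had an unadjusted p under 0.05, against 8.64%. These were Pdk1 and Slc2a1 on the lower side and Ldha on the higher side. The median was −0.03, beside 0.003 over all genes, with 4 members positive and 4 negative. Of the 4 members whose groups did not overlap, 1 was higher, against 18.3% of all genes, and 3 were lower, against 19.2%. Without sunitinib replicate 4, Pdk1 passed at −0.43 (adjusted p = 0.00708), where 3.66% of genes did, and with any 1 library left out its adjusted p ranged from 0.00708 to 1. The fit without sunitinib replicate 4 took its spread from the vehicle pair and limma's prior. With the library numbers of the descriptions as a block, a fit added after the data were seen, Pdk1 passed on the lower side (adjusted p = 0.000689) and Ldha on the higher side (adjusted p = 0.0140), where 6.11% of all genes passed. The labels do not say that these numbers pair the libraries. The 95% intervals of Bnip3, Egln3 and Ndrg1 in liver ran from −0.15 to 0.17, from −0.16 to 0.23 and from −0.15 to 0.18.

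**Figure D3:**
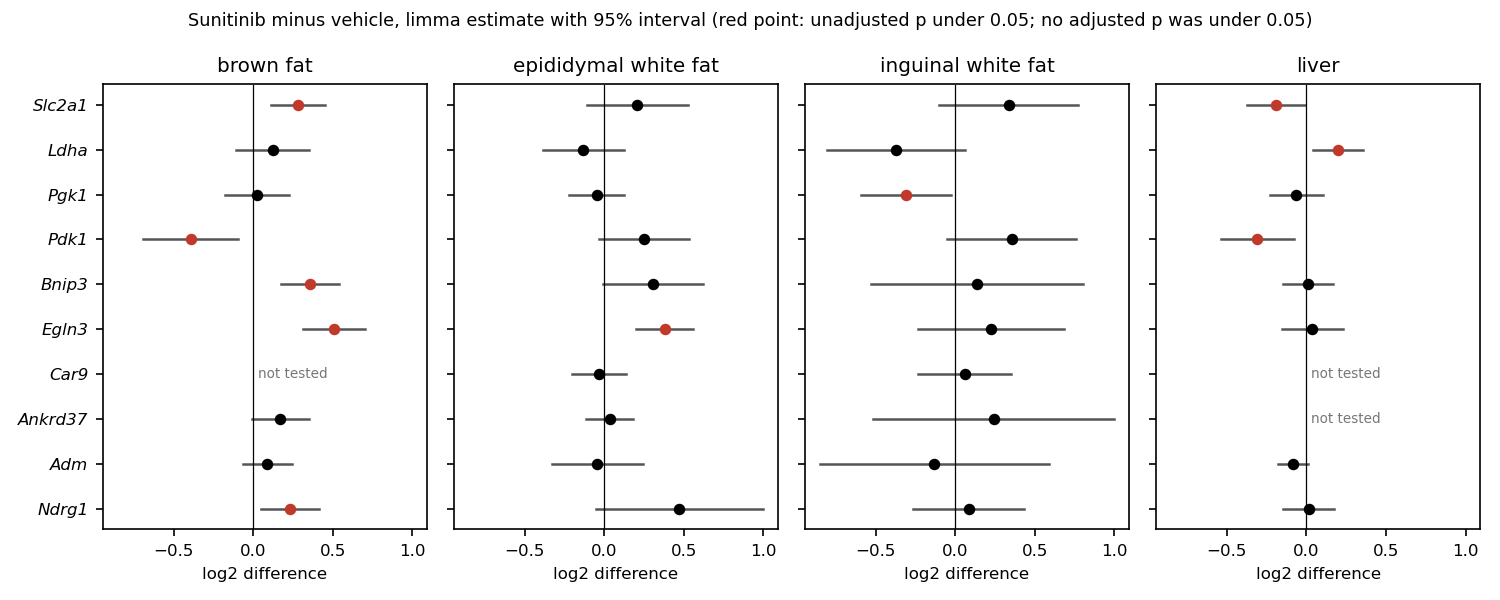
Log2 difference of sunitinib minus vehicle (x axis) with its 95% limma interval for each gene (y axis) in the 4 tissues, red where the unadjusted p was under 0.05. Egln3, Bnip3, Slc2a1 and Ndrg1 lie to the right in BAT with Pdk1 to the left, and the widest intervals are in iWAT.

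Differences between tissues were tested for each of the 6 pairs, and 0 members passed in any pair in limma. The share of all genes that passed was 3.64% for BAT against eWAT, 0.0314% for BAT against iWAT, 0% for BAT against liver, 0% for eWAT against iWAT, 3.95% for eWAT against liver and 0.0430% for iWAT against liver. The members with an unadjusted p under 0.05 numbered 1, 3, 4, 0, 4 and 3 in the same order, against 22.0%, 13.6%, 14.4%, 10.1%, 18.8% and 13.7% of all genes. Beside the values of Slc2a1 and Pdk1 given above, the effect in BAT minus that in liver was 0.47 ± 0.12 for Egln3 (adjusted p = 0.181) and 0.35 ± 0.10 for Bnip3 (adjusted p = 0.184). The 2 white depots did not show a member difference past even the unadjusted threshold. Pairs that share a tissue share its libraries, and shrinkage may differ between tables.

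Across the 16 libraries, with each gene's tissue mean removed, Bnip3 and Egln3 varied most alike (Pearson r = 0.796), and Ldha varied with Pgk1 (r = 0.744). Ldha ran against Pdk1 (r = −0.720) and against Slc2a1 (r = −0.616). These are descriptions over libraries that share tissues and treatment. The 8 members tested in all 4 tables had a mean that was lower in both vehicle libraries than in both sunitinib libraries of BAT, at −0.07 and −0.09 against 0.06 and 0.09, and of eWAT, at −0.10 and −0.07 against 0.01 and 0.17. In iWAT, at −0.03 and −0.01 against 0.11 and −0.07, and in liver, at −0.01 and 0.05 against −0.07 and 0.02, the 2 treatments overlapped. The members did not vary as one: Ldha (r = −0.283), Pdk1 (r = −0.212) and Pgk1 (r = −0.165) ran against the mean of the others. The rest had r from 0.265 (Adm) to 0.736 (Ndrg1). How often a mean of other genes separates the treatments was not computed. Of the other genes tested in all 4 tables, with 11113 in all, the 5 most like the mean of the 8 members were Hsd17b11 (r = 0.879), Csrp2 (r = 0.871), St6galnac2 (r = 0.867), Wdr34 (r = 0.849) and Hyal2 (r = 0.845). They were picked as the highest of all, with no background for r.

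A further 67 genes of the hypoxia pathway were read in the same fits: HIF subunits and oxygen sensors, glycolysis and lactate export, mitochondrial and pH targets, and other HIF targets. In limma 1 of 66 tested fell in eWAT, where 2.34% of all genes passed, and 1 of 54 rose in liver, where 0.194% did, while 0 of 64 passed in BAT and 0 of 66 in iWAT, where 0% of all genes did. An unadjusted p under 0.05 was found for 18 in BAT, 20 in eWAT, 19 in iWAT and 5 in liver, against 16.1%, 20.1%, 12.7% and 8.64% of all genes. The gene that fell was Plod1, a lysyl hydroxylase of collagen, at 11.40 in both vehicle libraries of eWAT and 10.96 in both sunitinib libraries, or −0.44 ± 0.06 (adjusted p = 0.0399). The gene that rose was Ppp1r3c, a subunit that targets protein phosphatase to glycogen, at 8.93 and 8.83 in vehicle liver and 9.37 and 9.39 in sunitinib liver, or 0.50 ± 0.07 (adjusted p = 0.0395). Plod1 did not pass with no filter, with quantile normalization or without either vehicle library (adjusted p = 0.254 without replicate 1 and 0.291 without replicate 2). Over all alternatives its adjusted p ran from 0.0256 to 0.291. Ppp1r3c did not pass under 5 of the 8 alternative fits that kept every library, nor without vehicle replicate 2 (adjusted p = 0.0718). Its adjusted p ran from 1.83e-05 to 1.

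Hif1a, which encodes the HIF-1 alpha subunit, lay lower with sunitinib without overlap in all 3 fat depots. Singly, 24.0% of all genes showed such an order in BAT, 26.8% in eWAT and 26.4% in iWAT. Hif1a passed in none. It was at 9.05 and 8.98 in vehicle BAT and at 8.62 and 8.63 in sunitinib BAT, or −0.39 ± 0.06 (adjusted p = 0.228), and the differences were −0.30 ± 0.08 in eWAT (adjusted p = 0.146) and −0.37 ± 0.15 in iWAT (adjusted p = 0.403). Kdm3a, a histone demethylase and HIF target, stood higher in BAT at 0.41 ± 0.08, as did Ndufa4l2, a mitochondrial HIF target, at 0.27 ± 0.06, and Egln2, another EGLN hydroxylase, at 0.27 ± 0.06 (adjusted p = 0.228 for each). The 10 HIF and sensor genes tested in BAT had a median of 0.005, and the 29 other HIF targets one of 0.08 with 20 positive. The 16 genes of glycolysis and lactate export lay the other way, with a median of −0.10 and 11 negative. An unadjusted p under 0.05 was found for 4 of the 16 and for 9 of the 29 other HIF targets, against 16.1% of all genes. The 4 were Hk2, Eno1 and Pkm2 on the lower side and Aldoc, near the filter at 3.07 to 3.20, on the higher side. Eno1 was at 5.73 to 6.05 and Pkm2 at 5.91 to 6.22, far below Aldoa of the same list, at 15.6 to 15.8. Whether these low values count all reads of Eno1 and Pkm2 is not known. Of 10 endothelial markers in BAT, 10 were positive with a median of 0.36, and their summed level was 12.9 to 13.3 with vehicle and 13.5 to 13.6 with sunitinib. The part of endothelial cells in the BAT values was not tested, and in bulk tissue fewer cells of a type and less RNA per cell cannot be told apart.

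In eWAT the other hypoxia pathway genes pointed both ways, with 33 positive, 33 negative and a median of −0.003. Hmox1, heme oxygenase, was at 10.55 and 10.90 with vehicle and 10.15 and 9.96 with sunitinib, or −0.67 ± 0.14 (adjusted p = 0.0881). Epas1, which encodes the HIF-2 alpha subunit, was at −0.40 ± 0.09 (adjusted p = 0.0957). Vegfa, the main angiogenic HIF target, was the highest of the 66 genes at 0.38 ± 0.10, with 11.43 and 11.28 under vehicle and 11.83 and 11.62 under sunitinib (adjusted p = 0.141). The macrophage markers, of which 9 of 9 lay lower and 7 passed where 2.34% of all genes did, had a summed level of 14.3 in both vehicle libraries and 13.3 in both sunitinib libraries. Endothelial markers had 12.8 to 13.2 with vehicle and 12.6 in both with sunitinib. Epithelial and epididymal duct markers had 9.76 to 10.6 with vehicle and 11.7 to 13.3 with sunitinib. Whether these cell types carry the values of Hmox1, Epas1 or Ndrg1 was not tested.

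In iWAT 47 of 66 pathway genes were negative, with a median of −0.15, and the 16 glycolysis genes had a median of −0.31. The lowest glycolysis gene was Pfkm, the muscle phosphofructokinase, at −1.88 ± 0.81, in the libraries where the 8 muscle markers had a median of −3.00. Among the genes with the smallest p were Pfkfb4, a regulator of glycolytic flux, at −1.04 ± 0.12 (adjusted p = 0.285), and Tfrc, the transferrin receptor, at −0.90 ± 0.14 (adjusted p = 0.308). Ndufa4l2 was at −0.75 ± 0.15 (adjusted p = 0.313), opposite in sign to its value in BAT. Vegfa was at 12.80 in sunitinib replicate 1 and at 11.53 in replicate 2, against 11.54 and 11.47 with vehicle. Its difference of 0.67 ± 0.45 therefore rested on 1 library: it was 0.03 without replicate 1 and 1.30 without replicate 2. The part of muscle in the iWAT values was not tested.

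In liver the median of the 54 pathway genes tested was −0.002, with 26 positive. After Ppp1r3c the smallest p-values belonged to Wsb1, a substrate receptor of a ubiquitin ligase, at 0.46 ± 0.11 (adjusted p = 0.193), and Insig2, a sterol sensor of the endoplasmic reticulum, at 0.37 ± 0.12 (adjusted p = 0.377). Tfrc was at −0.22 ± 0.09 (adjusted p = 0.508). Hif1a was at −0.04 ± 0.09 and Vegfa at −0.04 ± 0.11, both overlapping between treatments.

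**Figure D4:**
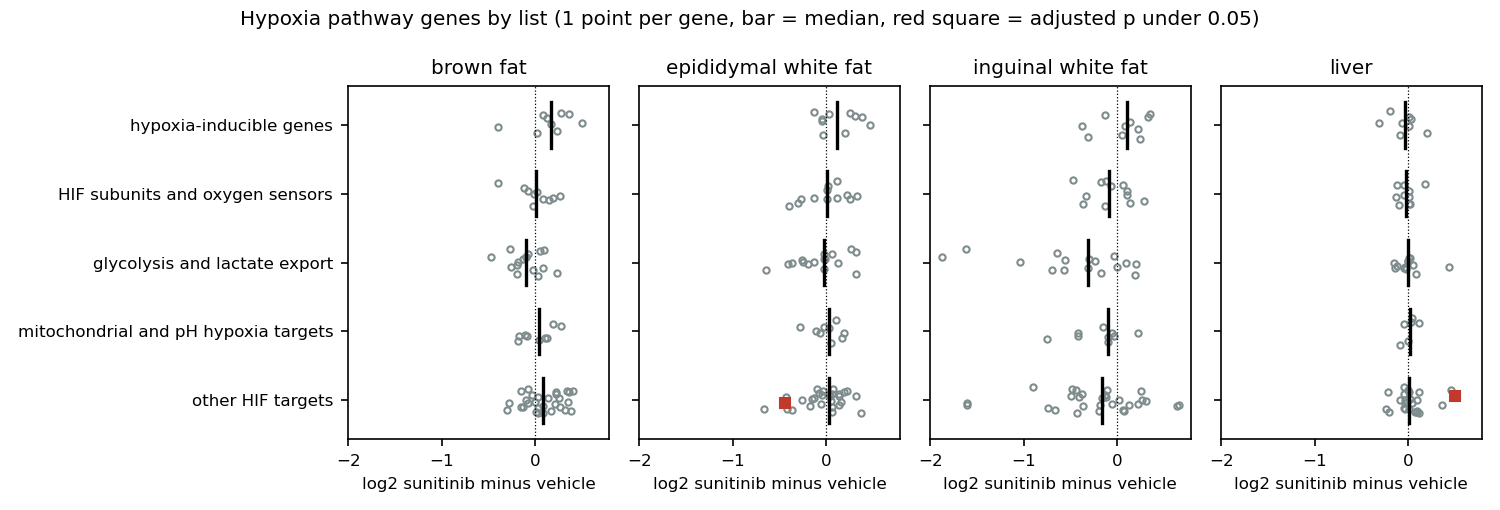
Log2 difference of sunitinib minus vehicle (x axis) of every tested gene of the 10 hypoxia-inducible genes and the 4 other hypoxia lists (y axis) in each tissue, with the median as a bar and genes past the test as red squares. The medians of the hypoxia-inducible genes are 0.17, 0.12, 0.11 and −0.03 in BAT, eWAT, iWAT and liver, and the squares are Plod1 in eWAT and Ppp1r3c in liver.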

How the data were processed

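Per the file names, the authors deposited regularized log2 expression per gene and library, in 1 table per tissue normalized on its own. The submitters' processing notes name TopHat2 2.1.1, bedtools, bcl2fastq 2.17.1.14 and DESeq2, and build mm9. What each tool did, which annotation was used and whether counting was stranded is not given in the sources used here. Read totals are not part of the values, so depth is unknown and intervals for counting error cannot be had. Columns were matched to samples by the description labels, and the titles' replicate numbers are used as names (3 and 4 for sunitinib livers, whose descriptions say 1 and 2). No 2 libraries of a table were identical.

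In R 4.3.3, limma 3.58.1 was run on each table over all genes with a mean of at least 3, with an intensity trend, 2 residual degrees of freedom and Benjamini-Hochberg adjustment over all genes tested. Adjusted p-values under 0.05 passed, and all tests were two-sided. Shrinkage reduces both the differences and the spread of genes with few reads. Tissue differences were interaction contrasts over 2 tables. With 2 libraries a side, an exact permutation p can be no smaller than 0.333, and none was computed. The 95% intervals use limma's moderated variance and are not adjusted. The fits were tested on simulated data.

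The members and lists were chosen with earlier results of these data known. Of the other pathway genes, those that passed and the 4 with the smallest p per tissue were named, except 1 gene that is not reported here. Vegfa, Pfkm, the glycolysis genes Hk2, Eno1, Pkm2, Aldoc and Aldoa in BAT and the further values of Hif1a were named after their values were seen. Overlapping genes and near-identical copies cannot be resolved from these tables. This concerns Pgk1, Ldha and other glycolytic genes with processed pseudogenes. The alternatives were other filters, quantile normalization, median centring, no trend, a robust fit, 1 fit over the 4 tissues, a replicate block and leaving out each library. Sequences came from RefSeq tables of build GRCm38.p6.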

Additional observations from a re-analysis of the deposited data

How the results depend on the processing

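The number of members past the test was 0 in each tissue, and stayed 0 under every alternative that kept all libraries except the robust fit in eWAT (1, Egln3), 1 fit over the 4 tissues in iWAT (2, Ldha and Pgk1 on the lower side) and the replicate block in liver (2). Leaving out 1 library gave 0 to 4 members in BAT, 0 to 1 in eWAT, 0 to 4 in iWAT and 0 to 1 in liver. For the other pathway genes it gave 0 to 14 in BAT, 0 to 5 in eWAT, 0 to 24 in iWAT and 0 to 4 in liver. These ranges count either direction, out of 64 pathway genes tested in BAT, 66 in eWAT, 66 in iWAT and 54 in liver. They come from fits with 1 library left in a group, where the highest count over all genes also rose in every tissue. The ranges alone therefore do not set the pathway genes apart from all genes. The pathway genes' count of 1 in eWAT was 0 with no filter and with quantile normalization. Their count of 1 in liver was 0 with no filter, a mean of at least 5, quantile normalization, no trend and 1 fit over the 4 tissues. In iWAT their count was 20 in 1 fit over the 4 tissues, where 21.8% of the 11113 genes in that fit passed. The cause of these losses and gains was not tested. Over all genes, 363 in eWAT became 210 with no filter, 569 with a mean of at least 5 and 584 with a robust fit. In 1 fit over the 4 tissues there were 2425 in iWAT, 1 in BAT and 0 in liver, and liver had 3 with no trend against 24. The 1 fit over the 4 tissues held only the 11113 genes tested in all 4 tables, without Ankrd37 and Car9. Its counts are therefore not like for like with those of the single tissues. Leaving out 1 library gave 0 to 1292 genes in BAT, 0 to 1121 in eWAT, 0 to 4103 in iWAT and 50 to 454 in liver. The sign of a member's difference turned when 1 library was left out for Pgk1 in BAT (−0.055 to 0.10), for Adm (−0.16 to 0.072), Car9 (−0.12 to 0.055) and Ankrd37 (−0.043 to 0.11) in eWAT, and for Bnip3 (−0.18 to 0.46), Car9 (−0.025 to 0.14), Ankrd37 (−0.12 to 0.60), Adm (−0.45 to 0.19) and Ndrg1 (−0.052 to 0.22) in iWAT. In liver it turned for Bnip3 (−0.0048 to 0.021), Egln3 (−0.056 to 0.13) and Ndrg1 (−0.036 to 0.066), and median centring gave −0.00050 for Bnip3. Tissue differences had 0 members past the test under all 4 alternatives.

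With the replicate number of the titles as a block, 0 members passed in BAT, eWAT and iWAT, with smallest adjusted p-values of 0.449, 0.0589 and 0.556, and eWAT had 678 genes past the test in all. Nothing in the labels says that a number marks a shared mouse. Deviations of same-numbered libraries correlated at −0.256, 0.224 and 0.108 over genes. In liver the titles number the sunitinib libraries 3 and 4, which gives no pairs, whereas the descriptions number them 1 and 2. A replicate block on the description numbers, chosen after seeing the data, gave 2 members (Pdk1 and Ldha), 5 other pathway genes and 757 genes in all, and the deviations correlated at 0.435.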
